A study of Homo sapiens with 9 samples.

Results

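The BCL2 family decides whether a cell's mitochondria release the proteins that start apoptosis, and 10 of its genes were read across the 3 states of THP-1 cells profiled here. THP-1 is a human line of monoblastic leukemia cells that grow in suspension. The members were MCL1, BCL2, BCL2L1, BCL2A1, BAX, BAK1, BID, BCL2L11, BBC3 and PMAIP1, and every probe that the platform annotation assigns to one of these symbols was taken, whatever its values. This gave 22 probes for the 10 genes, of 48803 probes and 18665 named genes on the array. Total RNA of replated, frozen and fresh THP-1 cells was labelled as biotinylated cRNA and measured on Illumina bead arrays, with 3 arrays per state. The series design calls the replicates biological and does not say how the cultures were separated, so p-values measure the spread between these arrays. All states share 1 cell line with no stated treatment or genotype. The series title concerns RNA taken from liquid nitrogen stocks, and no freezing, thawing or culture times are given.

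Proteins of this family fall into 3 classes. MCL1, BCL2, BCL-xL (the product of BCL2L1) and BCL2A1 hold the mitochondrial outer membrane closed. BAX and BAK1 are the effectors that form pores in it, and BID, BIM (BCL2L11), PUMA (BBC3) and NOXA (PMAIP1) carry only the BH3 motif, with which they bind the other members and promote pore formation. NOXA binds mainly MCL1 and BCL2A1. Myeloid leukemia cells often depend on MCL1 or BCL2 for survival, and MCL1 protein and mRNA are both short-lived. The arrays measure RNA only, and in bulk cells a change in the mix of cells and a change of RNA per cell cannot be told apart.

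Probes of PMAIP1, MCL1, BCL2, BAX and BAK1 had a called difference (limma adjusted p under 0.05) between some states. The promoters of PMAIP1, BAX and BAK1 are shown first. RefSeq's table for GRCh38.p14 held windows for 9 of the 10 members (not MCL1). The BCL2 window held no match to the 3 motifs below. It lies inside the annotated span of the gene and is not printed. Each sequence is the 250 bases before the annotated start of the gene on the gene's own strand, at chr18:59899746-59899995 (plus strand) for PMAIP1, chr19:48954625-48954874 (plus strand) for BAX and chr6:33580277-33580526 (minus strand) for BAK1. Capitals mark matches on either strand to TGACGT, the core of the element bound by CREB and ATF factors, to CACGTG, the E-box, or to TGANTCA, the site of AP-1. These motifs were chosen after the sequences had been read.
PMAIP1: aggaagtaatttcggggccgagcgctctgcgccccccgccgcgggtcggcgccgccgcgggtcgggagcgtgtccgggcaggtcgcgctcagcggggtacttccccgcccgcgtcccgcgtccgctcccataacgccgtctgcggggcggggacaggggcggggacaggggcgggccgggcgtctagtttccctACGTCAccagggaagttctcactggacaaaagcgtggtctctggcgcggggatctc
BAX: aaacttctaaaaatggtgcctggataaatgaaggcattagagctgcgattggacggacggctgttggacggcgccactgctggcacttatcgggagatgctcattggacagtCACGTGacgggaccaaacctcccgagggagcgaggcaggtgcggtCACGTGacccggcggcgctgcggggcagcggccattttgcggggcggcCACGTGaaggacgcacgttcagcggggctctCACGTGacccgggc
BAK1: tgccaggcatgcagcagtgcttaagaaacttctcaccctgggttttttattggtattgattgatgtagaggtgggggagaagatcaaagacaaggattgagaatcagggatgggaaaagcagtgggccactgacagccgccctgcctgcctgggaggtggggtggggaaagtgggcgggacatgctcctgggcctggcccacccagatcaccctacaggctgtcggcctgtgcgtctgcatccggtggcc
The PMAIP1 window held 1 match to TGACGT, read on the opposite strand, 56 to 51 bases before the start. The BAX window held 4 matches to CACGTG, the farthest 138 to 133 and the nearest 14 to 9 bases before the start. The BAK1 window held no match to any of the 3 motifs. Among windows not printed, CACGTG also occurred for BID, which had no called difference, and for BBC3, which was undetected. The BBC3 window was the only member window with TGANTCA. Among 35116 promoter windows of the same length, 7.10% held TGACGT, 6.34% CACGTG and 6.57% TGANTCA. No marked matches overlap. A match describes the letters and is not evidence that a factor was bound.

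Each probe has a detection score, which was read as 1 minus the detection p against the array's negative controls, and a probe counted as detected above 0.95. Of the 22 probes, 14 were detected on 9 arrays and 9 had a score of 1 throughout. The BCL2L1 probe ILMN_1742410 was detected on 8 arrays and missed on fresh replicate 3. The other 7 were detected on 0 arrays, with signals of 46.2 to 70.7 intensity units and a highest score of 0.947. They were one probe each for BCL2 (ILMN_1701120), BCL2A1 (ILMN_1769229), BAX (ILMN_2258383), BID (ILMN_2259495) and BBC3 (ILMN_1729645) and a pair for BCL2L11 (ILMN_1766541 and ILMN_1774997). BCL2A1 and BBC3 have no other probe, so these 2 genes were not detectable on these arrays in any state. BBC3, a p53 target that encodes PUMA, had scores of 0.281 to 0.789. BCL2A1, an NF-kB target, had scores of 0.0593 to 0.729. The plot of detection scores shows these 7 probes left of the threshold on every array, and the dimmest detected probes just right of it.

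**Figure D1:**
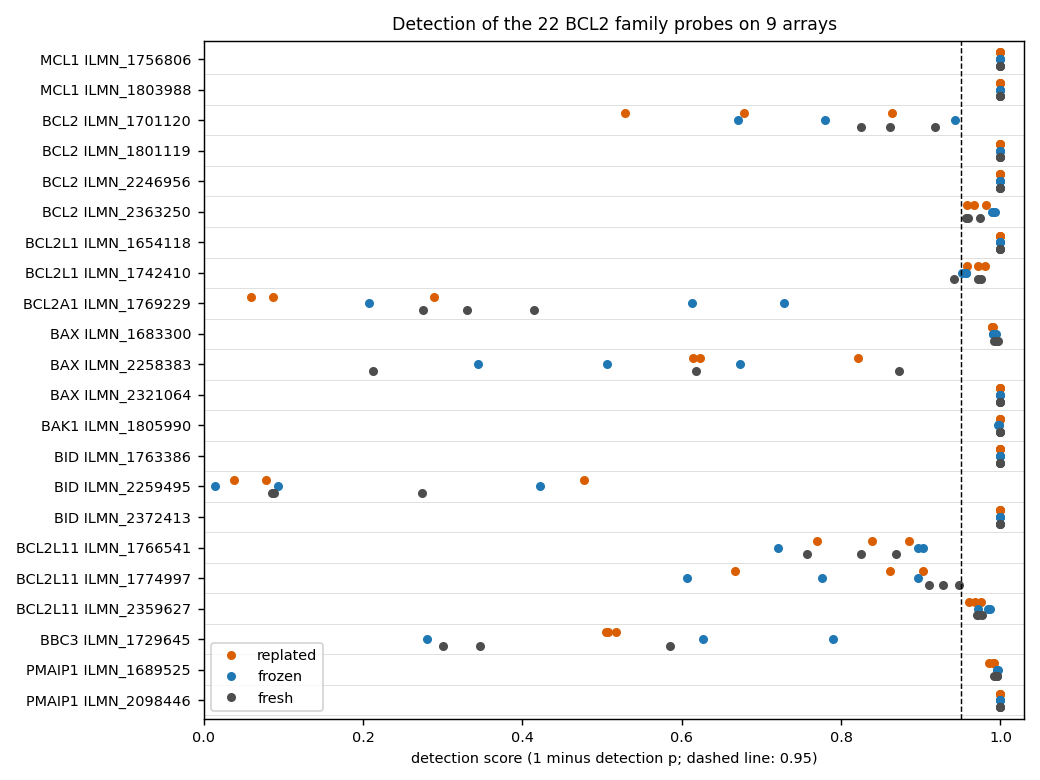
Detection score (1 minus the detection p, x axis) of the 22 member probes (rows), 1 point for each replated, frozen and fresh array, with a dashed line at 0.95. A total of 14 probes passed 0.95 on all 9 arrays, 1 on 8 and 7 on none.

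The 15 probes that passed the filter (detected on at least 3 of 9 arrays) stood for 8 genes, and each was detected on at least 2 arrays of every state, so none passed through 1 state alone. Values below are normalized log2 signal, and differences are in log2 units with limma's standard error (SE). Tests are limma's with Benjamini-Hochberg adjustment over all 18102 tested probes, called at an adjusted p under 0.05. In replated against frozen cells 1 of the 15 probes was called higher and 5 lower, while 11.6% of all tested probes were called (6.25% higher, 5.32% lower). In replated against fresh cells 0 were called higher and 2 lower, with 4.13% of all probes called (2.22% higher, 1.91% lower). In frozen against fresh cells 1 was called higher and 0 lower, with 1.02% of all probes called (0.486% higher, 0.53% lower). Limma's unadjusted p was under 0.05 for 9, 7 and 4 member probes in these comparisons, in the order given. The share of all tested probes at that unadjusted level was not computed, so no member result is read from these counts. The arrays of the compared states did not overlap for 9, 8 and 4 member probes in these comparisons, where the shares over all tested probes were 33.8%, 25.6% and 22.4%. Limma's F test across the states called 4 member probes, with 9.63% of all probes called. The probes share genes, so these counts are not counts of independent genes. Median differences over the 15 probes were -0.15, -0.13 and -0.02 in the same order of comparisons, against -0.01, -0.00 and 0.01 over all tested probes.

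**Figure D2:**
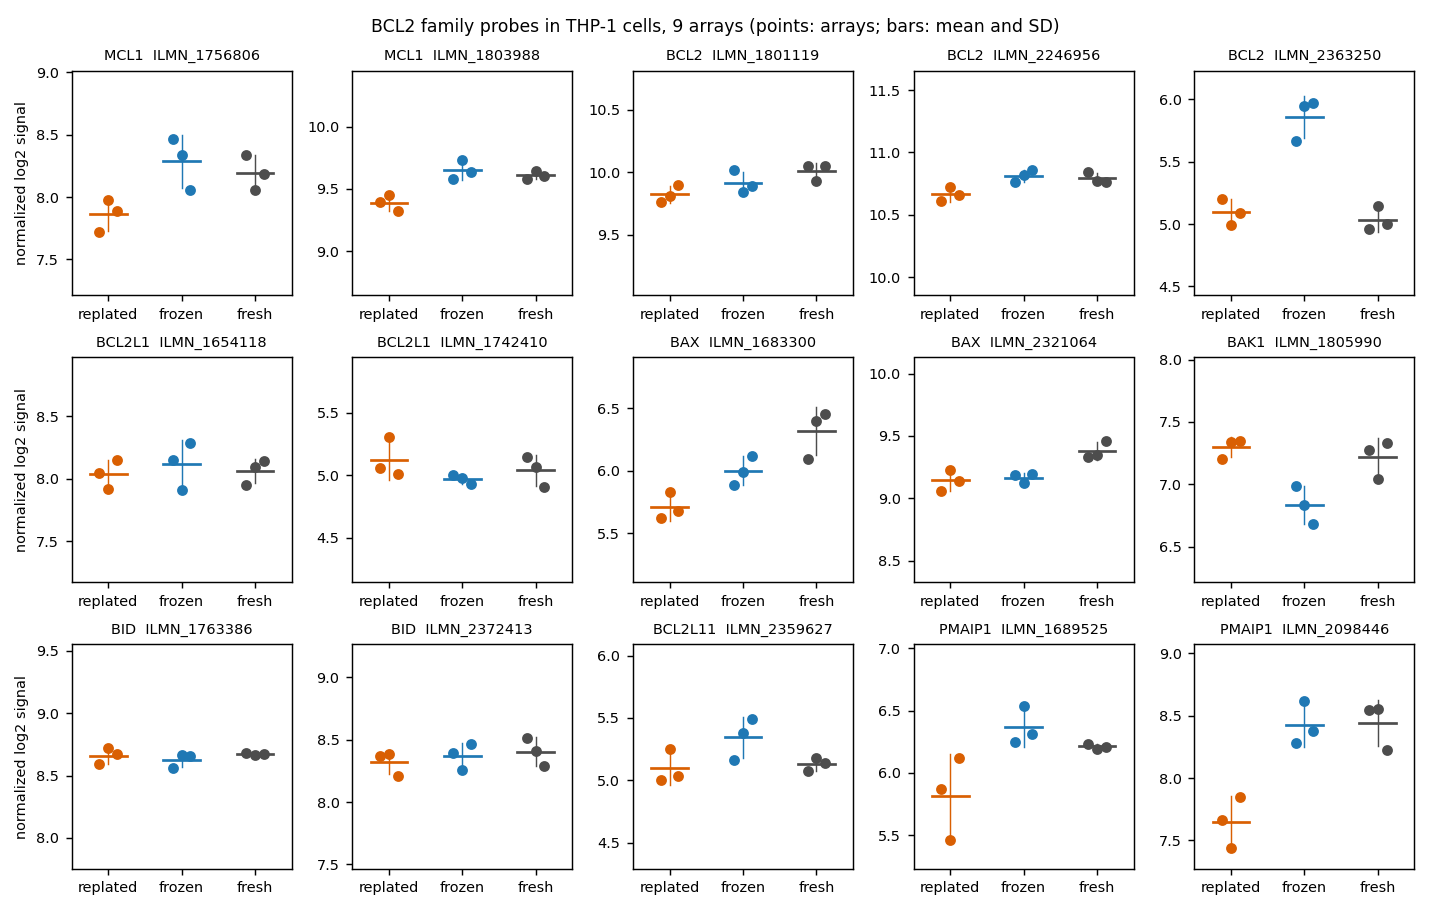
Normalized log2 signal (y axis) of the member probes on each array of replated, frozen and fresh cells (x axis), 1 point per array, with bars for the mean and SD. PMAIP1 ILMN_2098446 is low on the 3 replated arrays, BCL2 probe ILMN_2363250 is high on the 3 frozen arrays, and BAK1 is low on them.

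PMAIP1, which encodes the MCL1 antagonist NOXA, had the largest fall in replated cells among the 15 tested probes. Its brighter probe ILMN_2098446 read 7.66, 7.44 and 7.85 on the replated arrays (replicates 1 to 3), 8.28, 8.62 and 8.38 on the frozen arrays and 8.54, 8.56 and 8.23 on the fresh arrays. All replated arrays lay below all others, and frozen and fresh arrays overlapped. Before normalization the same probe averaged 250 ± 36.1, 359 ± 18.8 and 409 ± 55.3 intensity units in replated, frozen and fresh cells (SD, n = 3 each).

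In replated cells PMAIP1 was 1.73-fold lower than in fresh cells, a difference of -0.79 ± 0.13 (SE; 95% interval -1.08 to -0.50; limma adjusted p = 0.00995), and all 3 replated arrays were below all fresh arrays. It was 1.71-fold lower than in frozen cells, a difference of -0.78 ± 0.13 (interval -1.06 to -0.49; limma adjusted p = 0.0053). Frozen against fresh cells gave -0.02 ± 0.13 (interval -0.30 to 0.27; limma adjusted p = 0.964), so a change within that interval could not be told from none. Both calls held under every alternative processing that was run.

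The dimmer PMAIP1 probe, ILMN_1689525, read 5.87, 5.46 and 6.12 on replated, 6.25, 6.54 and 6.31 on frozen and 6.23, 6.19 and 6.21 on fresh arrays. The replated arrays were again the lowest and overlapped neither other state. Across the 9 arrays, which share a normalization, its profile had a Pearson correlation of 0.89 with that of the brighter probe. It was 1.46-fold lower in replated than in frozen cells (-0.55 ± 0.14, limma adjusted p = 0.0334), and its difference of -0.40 ± 0.14 between replated and fresh cells did not pass (limma adjusted p = 0.153). Nor did the probe pass limma's F test across the states (adjusted p = 0.0644). The call against frozen cells was lost in 8 of 18 alternatives, with an adjusted p of up to 0.102, among them those without replated replicate 1 (0.069) or 2 (0.0657) and without frozen replicate 2 (0.102) or 3 (0.0673). Its difference was -0.33 with no background correction and -0.37 without replated replicate 2.

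Of the pro-survival members, MCL1 was lower in replated than in frozen cells on both of its probes. Probe ILMN_1756806 read 7.72, 7.98 and 7.89 on replated, 8.47, 8.34 and 8.06 on frozen and 8.34, 8.06 and 8.19 on fresh arrays. Probe ILMN_1803988 read 9.40, 9.45 and 9.32 on replated, 9.58, 9.74 and 9.63 on frozen and 9.58, 9.64 and 9.61 on fresh arrays. On both probes every replated array lay below every other array, while frozen and fresh arrays overlapped.

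The differences between replated and frozen cells were -0.43 ± 0.12 for ILMN_1756806 (1.34-fold lower; limma adjusted p = 0.0408) and -0.26 ± 0.07 for ILMN_1803988 (1.20-fold lower; limma adjusted p = 0.0362). Against fresh cells they were -0.33 ± 0.12 (limma adjusted p = 0.143) and -0.22 ± 0.07 (limma adjusted p = 0.106), neither called. Frozen against fresh cells differed by 0.09 ± 0.12 and 0.04 ± 0.07 on these probes, also not called. Both called differences are near the threshold. Neither probe passed limma's F test across the states (adjusted p = 0.0733 for ILMN_1756806 and 0.0602 for ILMN_1803988). ILMN_1756806 lost its call in 11 of 19 alternatives (adjusted p of up to 0.147), including those without replated replicate 1 (0.123), 2 (0.0535) or 3 (0.0938), without frozen replicate 1 (0.113) or 2 (0.106) and without fresh replicate 3 (0.0541). ILMN_1803988 lost its call in 7 (up to 0.217), including those without replated replicate 1 (0.0763), 2 (0.0533) or 3 (0.119) and without frozen replicate 2 (0.114) or 3 (0.0775), and its difference was -0.16 with arrays centred on the median of all probes. No alternative turned either sign.

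BCL2 had a called difference on 1 of its 3 tested probes. The annotation assigns probes ILMN_1801119 and ILMN_2246956 to NM_000633, the alpha form that carries the membrane anchor, and ILMN_2363250 and ILMN_1701120 to NM_000657, the shorter beta form. ILMN_2363250 read 5.20, 4.996 and 5.09 on replated, 5.67, 5.95 and 5.97 on frozen and 4.96, 5.14 and 5.004 on fresh arrays. The 3 frozen arrays lay above all others, and replated and fresh arrays overlapped. The probe is dim: its signal before normalization averaged 74.9 ± 3.56, 97.5 ± 3.12 and 74.9 ± 2.41 intensity units in replated, frozen and fresh cells (SD, n = 3 each), with detection scores down to 0.958, 0.989 and 0.957.

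On this probe BCL2 was 1.77-fold higher in frozen than in fresh cells, by 0.83 ± 0.10 (interval 0.61 to 1.04; limma adjusted p = 0.00298). It was 1.70-fold lower in replated than in frozen cells, by -0.76 ± 0.10 (limma adjusted p = 0.00136), and replated against fresh cells gave 0.06 ± 0.10 (limma adjusted p = 0.786). The calls held in every alternative that tested the probe, but the size depends on the background: frozen minus fresh was 0.44 with no background correction, 0.46 with an offset of 50 and 1.57 in the values processed by the authors, and replated minus frozen was -0.41, -0.43 and -1.40 in the same settings. The probe was not tested where detection at p under 0.01 was required on all 9 arrays.

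The other probe of the beta form, ILMN_1701120, was undetected and read 62.0, 53.6 and 59.2 intensity units on replated, 63.8, 66.1 and 61.1 on frozen and 64.7, 64.2 and 66.9 on fresh arrays, with the frozen arrays overlapping both other states. The rise in frozen cells therefore rests on 1 probe. Neither alpha probe was called there. ILMN_2246956 read 10.61, 10.72 and 10.66 on replated, 10.76, 10.82 and 10.86 on frozen and 10.85, 10.77 and 10.76 on fresh arrays, and frozen minus fresh was 0.02 ± 0.07 (interval -0.13 to 0.17; limma adjusted p = 0.912). ILMN_1801119 gave -0.10 ± 0.07 (interval -0.26 to 0.07; limma adjusted p = 0.547). The interval of the beta probe, 0.61 to 1.04, does not reach either of these intervals. The probes differ in brightness and their difference was not tested. In replated cells the alpha probes lay at -0.13 ± 0.07 and -0.19 ± 0.07 against fresh cells, neither called.

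BCL2L1, the gene of BCL-xL, showed no called difference. Its bright probe ILMN_1654118 read 8.05, 7.92 and 8.15 on replated, 8.15, 7.91 and 8.29 on frozen and 7.95, 8.10 and 8.14 on fresh arrays, and the states overlapped. The 95% intervals of its 3 differences lay between -0.31 and 0.29. The dim probe ILMN_1742410 correlated with it at -0.66 across the 9 arrays, and its differences had adjusted p-values between 0.3 and 0.747.

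Of the effectors, BAX was lower in replated than in fresh cells on the probe ILMN_1683300, which the annotation assigns to NM_004324. It read 5.62, 5.83 and 5.67 on replated, 5.89, 5.99 and 6.12 on frozen and 6.10, 6.40 and 6.45 on fresh arrays. Replated arrays lay below all others, and frozen replicate 3 lay above fresh replicate 1. The difference was -0.61 ± 0.11 between replated and fresh cells (interval -0.84 to -0.37; 1.52-fold lower; limma adjusted p = 0.0132), -0.32 ± 0.11 between frozen and fresh cells (limma adjusted p = 0.168) and -0.29 ± 0.11 between replated and frozen cells (limma adjusted p = 0.101). The call was lost without replated replicate 1 (adjusted p = 0.0541), replated replicate 3 (0.0585) or fresh replicate 2 (0.0547), and the difference was -0.40 with an offset of 50 and -0.37 with no background correction.

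The brighter BAX probe ILMN_2321064, assigned to NM_138764, read 9.06, 9.23 and 9.14 on replated, 9.18, 9.12 and 9.19 on frozen and 9.33, 9.34 and 9.46 on fresh arrays. Here the fresh arrays lay above all others, and replated and frozen arrays overlapped. The differences did not pass: -0.24 ± 0.07 for replated minus fresh (limma adjusted p = 0.0963) and -0.21 ± 0.07 for frozen minus fresh (limma adjusted p = 0.17). The tested BAX probes correlated at 0.87 across the 9 arrays. The undetected probe ILMN_2258383, with signals of 52.7 to 67.3 intensity units, is assigned to NM_138764 as well.

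BAK1, the other effector, has 1 probe, ILMN_1805990, and was lowest in frozen cells. It read 7.21, 7.33 and 7.35 on replated, 6.99, 6.84 and 6.68 on frozen and 7.28, 7.04 and 7.33 on fresh arrays. Every frozen array lay below every other array, and replated and fresh arrays overlapped. It was 1.38-fold higher in replated than in frozen cells, by 0.46 ± 0.10 (interval 0.24 to 0.68; limma adjusted p = 0.0166). Frozen minus fresh was -0.38 ± 0.10 (interval -0.60 to -0.16) and did not pass (limma adjusted p = 0.0999; range over alternatives 0.0276 to 0.237). The call between replated and frozen cells was lost without replated replicate 2 (adjusted p = 0.051), replated replicate 3 (0.06) or frozen replicate 3 (0.0564).

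Of the BH3-only members other than PMAIP1, none had a called difference. BID, which caspase-8 cleaves to link death receptors to mitochondria, lay between 8.56 and 8.72 on all 9 arrays on ILMN_1763386 and between 8.21 and 8.52 on ILMN_2372413, with the states overlapping on both. Its 6 differences ran from -0.09 to 0.03. BCL2L11, the gene of BIM, read 5.003, 5.25 and 5.04 on replated, 5.16, 5.38 and 5.49 on frozen and 5.07, 5.18 and 5.14 on fresh arrays on its detected probe ILMN_2359627. Frozen minus fresh was 0.21 ± 0.10 (interval -0.00 to 0.43; limma adjusted p = 0.294) and replated minus frozen -0.25 ± 0.10 (limma adjusted p = 0.125). These arrays overlapped, and the probe was close to the detection threshold.

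**Figure D3:**
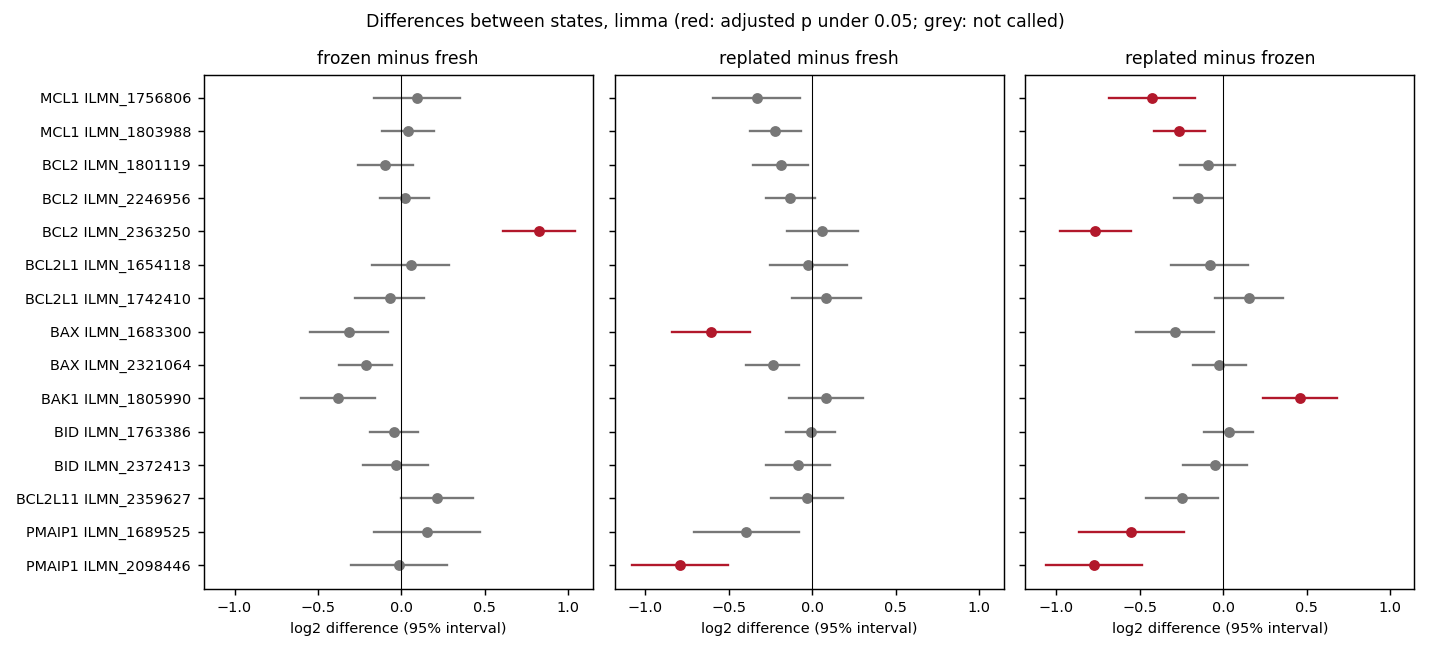
Log2 difference (x axis) with its 95% interval for the 15 tested member probes (rows) in frozen minus fresh, replated minus fresh and replated minus frozen cells; red marks an adjusted p under 0.05. BCL2 ILMN_2363250 is called in both comparisons with frozen cells, PMAIP1 ILMN_2098446 in both with replated cells.

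The order of the states differed between members. PMAIP1 and both MCL1 probes were lowest in replated cells, and BAK1 was lowest in frozen cells. The tested BCL2 beta probe was highest in frozen cells, and both tested BAX probes had their highest mean in fresh cells. Comparisons that share a state share its arrays, so differences against the same state are not independent of each other.

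Other genes of the pathway were read from lists, with a gene standing for its brightest tested probe. Of 11 other BCL2 family genes, 6 were tested and none was called in any comparison (limma, 0 at an unadjusted p under 0.05). They include BAD, a BH3-only protein controlled by phosphorylation, at -0.02 ± 0.11 in replated against fresh cells, and BCL2L2, a pro-survival member, at -0.04 ± 0.08. None of 9 tested genes (of 12) of the apoptosome and effector caspases was called (limma, 2, 1 and 0 at an unadjusted p under 0.05 in replated against frozen, replated against fresh and frozen against fresh cells). APAF1, the scaffold of the apoptosome, gave 0.24 ± 0.08 in replated minus frozen cells (limma adjusted p = 0.0708). None of 5 tested inhibitor of apoptosis genes (of 7) was called (limma, 1, 0 and 1 at an unadjusted p under 0.05 in the same order). Shares of all tested genes at that unadjusted level were not computed, so no list result is read from the unadjusted counts. Over all tested probes, 11.6% were called in replated against frozen cells, 4.13% in replated against fresh cells and 1.02% in frozen against fresh cells. Lists this small can hold no call at these shares, so their lack of calls is not read as a result about these genes. Under some alternatives the apoptosome and inhibitor lists did hold calls, given in the last section.

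Counts in the remaining lists are to be read against the 11.6%, 4.13% and 1.02% of all tested probes called in replated against frozen, replated against fresh and frozen against fresh cells. Of 15 tested partners (of 16 listed) at mitochondria and endoplasmic reticulum, 2 fell in replated against frozen cells, 1 of them also against fresh cells, and 0 rose; list medians were -0.01 and -0.02, against -0.00 and -0.00 over all tested genes. PGAM5, a mitochondrial phosphatase that binds BCL-xL, was 1.44-fold lower in replated than in frozen cells (-0.52 ± 0.09, limma adjusted p = 0.00519) and 1.31-fold lower than in fresh cells (-0.39 ± 0.09, limma adjusted p = 0.0355). Its other probe gave -0.33 (limma adjusted p = 0.0383) and -0.32 (limma adjusted p = 0.0723). The call against fresh cells was lost in 6 of 19 alternatives, among them those without replated replicate 1 or 3 or fresh replicate 2 or 3 (adjusted p up to 0.111).

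BNIP1, a protein of the endoplasmic reticulum that binds BCL2, was 1.32-fold lower in replated than in frozen cells (-0.40 ± 0.07, limma adjusted p = 0.00749), but its other probe gave -0.15 (limma adjusted p = 0.276), and its own adjusted p was 0.0645 with arrays centred on the median of all probes. Of 13 tested genes (of 14) of turnover and trafficking 1 was called in replated against frozen cells, with a list median of 0.03. It was MARCHF5, a ubiquitin ligase of the mitochondrial outer membrane that acts on MCL1 and NOXA, at -0.39 ± 0.11 in replated minus frozen cells (limma adjusted p = 0.0381). Its other probe gave -0.14 (limma adjusted p = 0.33), and the call was lost in 10 of 19 alternatives, among them those without replated replicate 1 or 2, any frozen replicate or fresh replicate 3 (adjusted p up to 0.151; differences of -0.51 to -0.26).

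Of 9 tested genes (of 12) of the death receptor pathway 1 was called in replated against frozen cells, near the share of 11.6% over all tested probes, with a list median of 0.09 in replated minus frozen cells. CFLAR, which encodes the caspase-8 inhibitor FLIP, was 1.38-fold higher in replated than in frozen cells (0.47 ± 0.10, limma adjusted p = 0.0146; 0.0512 without frozen replicate 3) and gave 0.34 ± 0.10 in replated minus fresh cells (limma adjusted p = 0.0818).

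Of 14 tested transcription factors (of 16) known to act on family genes, 2 rose in frozen against fresh cells, 1 rose and 1 fell in replated against fresh cells, and 1 rose and 2 fell in replated against frozen cells. JUN, a subunit of AP-1, had means of 7.09, 11.14 and 7.69 in replated, frozen and fresh cells. It was 10.9-fold higher in frozen than in fresh cells (3.45 ± 0.09, limma adjusted p = 1.8e-08), 16.6-fold lower in replated than in frozen cells (-4.05 ± 0.09, limma adjusted p = 1.63e-09) and 1.52-fold lower in replated than in fresh cells (-0.61 ± 0.09, limma adjusted p = 0.00628). ATF3, a stress-induced factor of the ATF group, had means of 5.49, 6.97 and 5.44 in the same states. It was 2.89-fold higher in frozen than in fresh cells (1.53 ± 0.12, limma adjusted p = 0.000172) and 2.79-fold lower in replated than in frozen cells (-1.48 ± 0.12, limma adjusted p = 7.43e-05). The 18 alternatives that tested the ATF3 probe all kept these calls. Over them, its frozen minus fresh difference ran from 0.97 to 2.11 and its replated minus frozen difference from -2.02 to -0.94. The probe was not tested where detection at p under 0.01 was required on all 9 arrays.

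STAT5A, a factor of cytokine signalling, was 1.29-fold higher in replated than in fresh cells (0.37 ± 0.09, limma adjusted p = 0.0426) and 1.24-fold higher than in frozen cells (0.31 ± 0.09, limma adjusted p = 0.0452). Those calls were lost in 11 and 10 of 19 alternatives, with adjusted p-values of up to 0.134 and 0.13. Leaving out any replated replicate, frozen replicate 2 or fresh replicate 2 was enough to end either, as was fresh replicate 1 or 3 for the first and frozen replicate 3 for the second. The other tested factors, among them ATF4 and DDIT3, which act in the integrated stress response, had no called difference. DDIT3 gave 0.23 ± 0.09 in frozen minus fresh cells (limma adjusted p = 0.23).

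**Figure D4:**
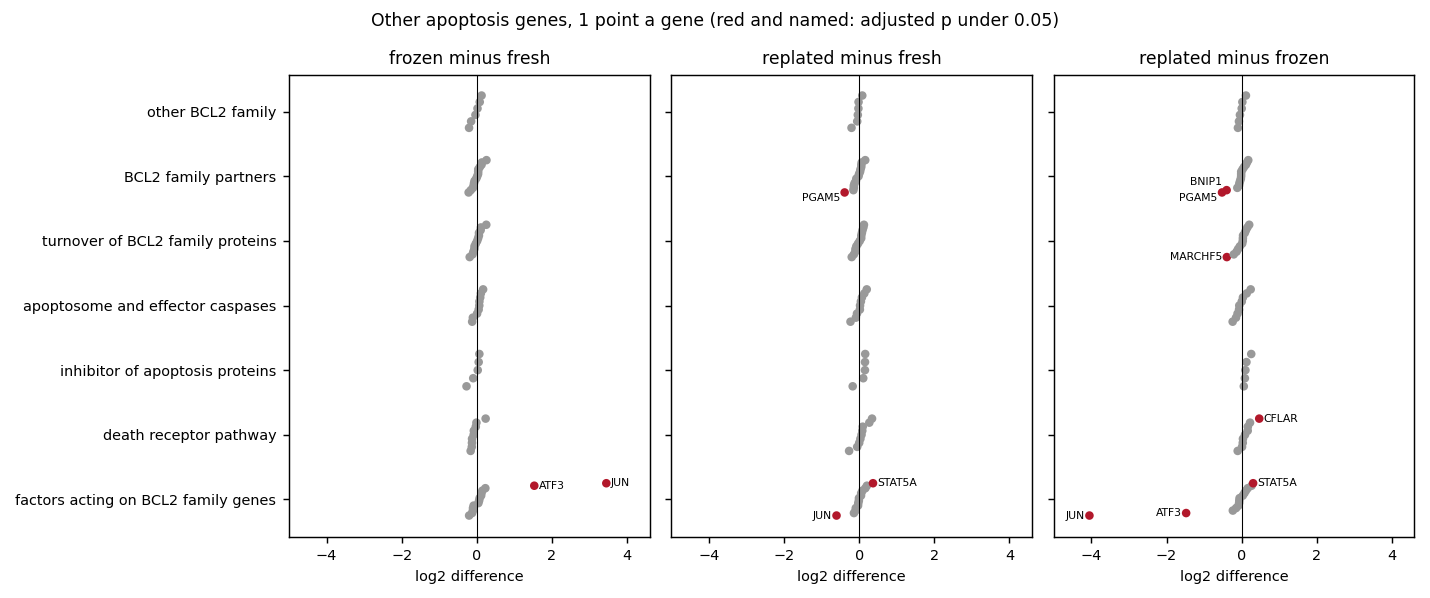
Log2 difference (x axis) of the tested genes of the 7 lists (rows), 1 point per gene, in the 3 comparisons; named red points have an adjusted p under 0.05. JUN and ATF3 stand apart in both comparisons with frozen cells, while genes of the other lists lie between -0.52 (PGAM5) and 0.47 (CFLAR).

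For the 4 member probes that passed the F test, the 3 most similar profiles among 10912 other genes were listed by Pearson correlation over the 9 arrays, as a description of arrays that share a normalization. PMAIP1 ILMN_2098446 was most like CIRBP (0.97), an RNA-binding protein induced by mild cold, CTU2 (0.97) and USP45 (0.96). BCL2 ILMN_2363250 was most like ZNF586 (0.98), RNU11 (0.98), a spliceosomal RNA, and TBCA (0.97). BAX ILMN_1683300 was most like TESC (0.96), TCEAL2 (0.96) and LSM4 (0.95); TCEAL2 was detected on 0 of 3 replated arrays, so its values there were not above background. BAK1 was most like DUSP3 (0.98), TM2D3 (0.97) and ROCK2 (0.96). The plot of these profiles shows the replated arrays lowest for the PMAIP1 group and the frozen arrays lowest for the BAK1 group. Since the genes were picked for their likeness, the shared order follows from the choice, and the correlation disregards the size of a difference.

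**Figure D5:**
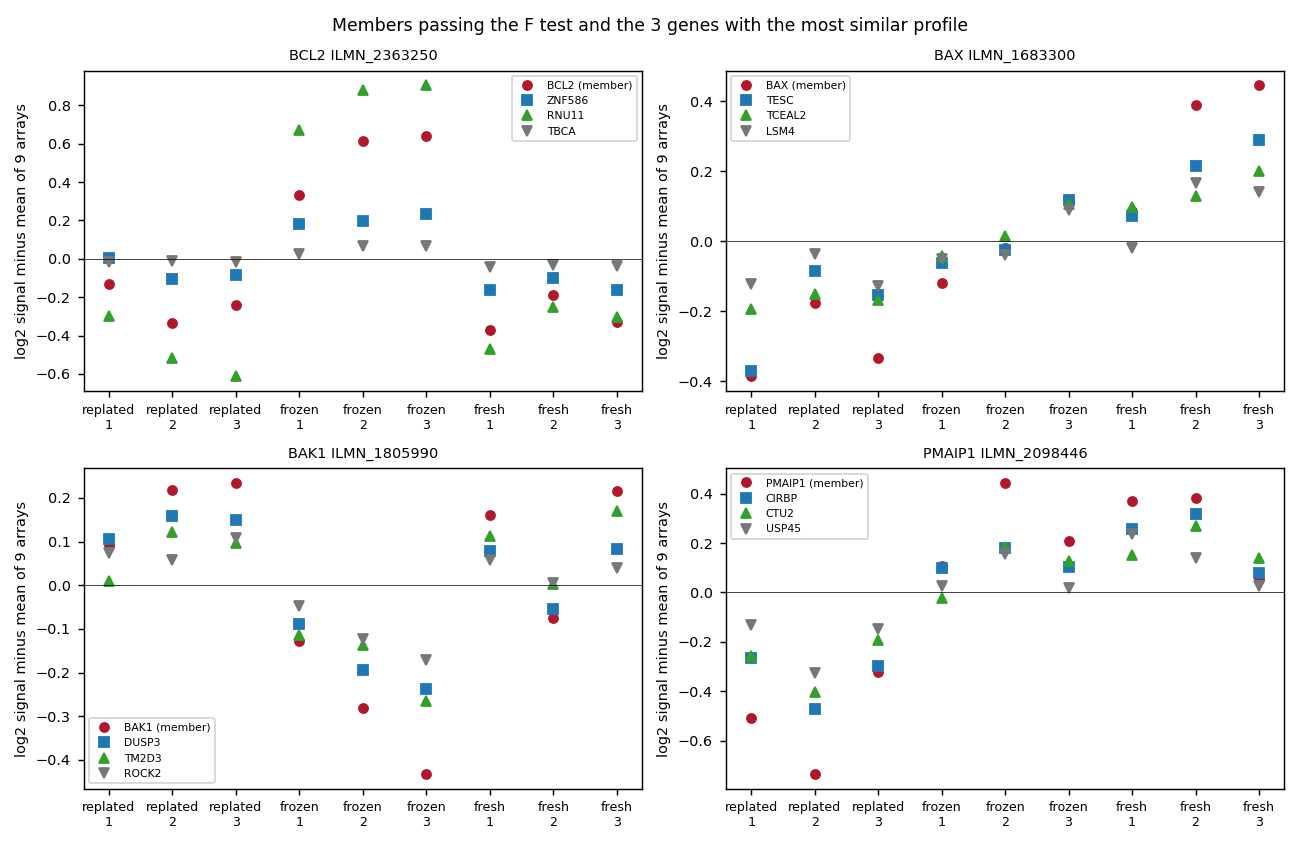
Normalized log2 signal minus the mean of the 9 arrays (y axis) on each replated, frozen and fresh array (x axis) for 4 member probes and the 3 genes most like each. By the choice of genes, PMAIP1 and its 3 genes are lowest on the replated arrays, and BCL2 ILMN_2363250 and its 3 genes are highest on the frozen arrays.

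Between 16898 and 17679 probes were detected per array, and mean signal before normalization ran from 299.6 to 367 intensity units. Of 12 monocytic marker genes 11 had a probe, and all 11 were detected on 9 arrays. Of 13 marker genes of other cell types with a probe, 10 were detected on 0 arrays, and the endothelial marker PECAM1, also expressed by monocytes, was detected on all 9. The B-cell markers MS4A1 and CD79A were detected on 6 arrays. Summed signal of the 13 genes was 1882 to 2065 on replated, 1550 to 1945 on frozen and 1882 to 2044 on fresh arrays. PECAM1 alone made up 1187 to 1344, 843 to 1150 and 1158 to 1293 of it, and the other 12 genes summed to 695 to 724, 707 to 795 and 703 to 752 in the same order of states. The brightest probes of the 10 genes detected on 0 arrays read 49.7 to 71.7 intensity units. Array medians over all probes were 59.4 to 67.4, so the share of these 10 genes in the sum was not above background. The part of other cell types in the differences above was not tested.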

How the data were processed

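RNA of 3 replated, 3 frozen and 3 fresh THP-1 samples was measured on 1 array each. Groups and replicate numbers come from the sample titles. Probe intensity was deposited on a linear scale and non-normalized, per the file headers. Beside it the deposited table has a detection score headed as a p value. Since it never drops while the signal of its array rises, 1 minus this score was taken as the detection p. Values processed by the authors are deposited as intensity too; they look background-corrected and quantile-normalized (sorted columns differ by at most 0.109%, rank correlation with the same array 1, column medians 5.04 to 5.06), by a method that the sources used here do not name.

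Signal was corrected and quantile-normalized with neqc of limma 3.58.1 in R 4.3.3 (offset 16, controls inferred from the detection p), so folds of dim probes are understated. Probes detected (p under 0.05) on at least 3 arrays were kept (18102). A model over 9 arrays (lmFit and eBayes, with 6 residual and 4.65 prior degrees of freedom) tested the 3 contrasts and the F statistic, with Benjamini-Hochberg adjustment over the kept probes. The number of arrays limits the precision.

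A single gene symbol was annotated for 27578 probes, several for 13 and none for 21212, and 27541 were brought up to date by Entrez ID in the GRCh38.p14 gene table. Of several probes of a list gene, the one with the highest mean signal stands for it. The rule for named genes took every member probe, the called genes of 7 lists and the 3 genes most like each member probe that passed the F test. BAD, BCL2L2, APAF1, ATF4 and DDIT3, none of them called, were named in addition to this rule. Members, lists and tests were chosen with earlier results of these data known. Results were recomputed without background correction, with a larger offset, other centring or detection filters, the authors' values, a replicate block, 2 states at a time, an intensity trend with robust prior, and without each array. Surplus sample columns numbered 0.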

Additional observations from a re-analysis of the deposited data

How the results depend on the processing

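Of the 9 called differences of member probes, 4 kept their call under every alternative in which they were tested and none changed sign. They were those of BCL2 ILMN_2363250 and PMAIP1 ILMN_2098446, and the losses of the other 5 are given beside them. Of the 36 that were not called, 31 were called under none of the 19 alternatives, 5 under some, and 16 changed sign under some. The cause was not tested in any case below, other than fewer arrays where one was left out.

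Member probes called in frozen against fresh cells (1) became 2 with an offset of 50, with no background correction and with an intensity trend and robust prior, and 3 with arrays centred on the median of all probes, an alternative added after seeing the data. In replated against fresh cells (2) they became 4 with the offset of 50 and 5 with the robust prior, and in replated against frozen cells (6) 3 with only the 2 states compared. The F test (4) called 8 with the offset of 50, 8 with no background correction and 8 with the robust prior. Centring on all probes moved the median of the tested probes to -0.10, -0.02 and 0.08 in frozen minus fresh, replated minus fresh and replated minus frozen cells, so member differences there are to be read relative to these shifts. With each array left out in turn, calls ran from 1 to 1, 1 to 2 and 2 to 6 in these comparisons, and from 3 to 4 in the F test.

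Over all tested probes, frozen against fresh cells gave 184 calls (88 higher, 96 lower). These were 542 with the offset of 50 (187 higher, 355 lower), 565 with no background correction (189 higher, 376 lower), 287 with median centring over the tested probes (200 higher, 87 lower; its definition was settled after both centrings had been seen), 827 with centring over all probes (70 higher, 757 lower), 103 with the authors' values, 366 with strict detection, 54 with only the 2 states and 826 with the robust prior. Replated against fresh cells gave 747 calls, and 1333 with the offset of 50, 1305 with no background correction, 468 with centring over all probes, 427 with the authors' values, 1199 with strict detection and 1526 with the robust prior. Replated against frozen cells gave 2095 calls, and 3266 with the robust prior. With each array left out they ran from 52 to 139, 245 to 696 and 1011 to 2028.

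List calls summed over the comparisons were 1 for turnover, 2 with median centring and 0 with the authors' values, with no filter and with only the 2 states. The apoptosome list had 0, and 2 with the offset of 50, with no background correction, with strict detection and with the robust prior, and 1 with centring over all probes. The inhibitor list had 0, and 1 in these 5 settings. The death receptor list had 1, and in the settings just named 3, 2, 4, 2 and 2. With each array left out, the death receptor, inhibitor and turnover lists each ran from 0 to 1.

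Same-numbered arrays had deviations from their state means that correlated between -0.05 and 0.05 over 9 pairs, 0 of them above 0.1. No pairing by number was seen in the normalized values. These values cannot show whether same-numbered samples shared a culture or were processed together, since normalization removes array-wide shifts. With a replicate block, member calls were 1, 2 and 4, and 3 in the F test, and all-probe calls were 104, 444 and 1740. Signal close to background limits the size that can be read: frozen minus fresh on the dim BCL2 probe ILMN_2363250 ran from 0.44 to 1.57.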
